A study of Mus musculus with 28 samples.

Results

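Mouse primordial germ cells (PGCs), from which eggs and sperm descend, were compared after and before 1 day of a culture meant to start meiosis. The comparison set 2 libraries called PGC-1dMeioLC against 2 libraries called E10.5PGC. Its genes were those with at least 1 transcript per 1000000 (TPM) in 2 or more of these 4 libraries, which held for 16342 of the 53564 genes in the deposited table. The 4 libraries were among 28 samples of a series on telomere length and the making of germ cells from stem cells, all from strain C57BL6, measured by sequencing of total RNA.

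For PGC-1dMeioLC, E10.5 PGCs were aggregated with somatic cells from the gonads of female E12.5 Actin-GFP mice and kept for 1 day in MF10 medium, which held fetal bovine serum, vitamin C and the ROCK inhibitor Y27632, with 3 µM retinoic acid. GFP-negative cells were then sorted. For E10.5PGC, gonads of E10.5 embryos were dissociated and PGCs were sorted with antibodies to integrin β3 (CD61) and SSEA1, and their RNA was taken without culture. The labels name no transgene or deletion in the PGCs and give neither the sex nor the number of the embryos. A further group of 2 libraries, LT-1dMeioLC, served as the most similar group. It came from wild-type embryonic stem cells with long telomeres that had been made into PGC-like cells and then put through the same culture. Nothing in the labels says that the libraries of a group came from separate embryos or cultures. The p-values and standard errors rest on the spread within groups, pooled over 16 libraries in 8 groups of the series. Those include groups not compared here, and the spread may be technical. Time, co-culture, retinoic acid, medium and the way of sorting all changed together between the groups, and their effects cannot be told apart.

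In the mouse embryo, PGCs are set aside in the epiblast, migrate through the hindgut and reach the gonads around the stage sampled here. They carry many pluripotency genes until, in the female gonad, retinoic acid and BMP signals are followed by the appearance of STRA8, the factor that with MEIOSIN switches on meiotic genes, and by assembly of the meiotic chromosome axis. Retinoic acid acts through nuclear receptors (RAR and RXR) that bind repeated half-sites in DNA, and it is broken down by the CYP26 enzymes. In bulk libraries such as these, fewer cells of a type and less RNA per cell cannot be told apart.

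The germ cell markers were present in both groups. Ddx4, a germ cell RNA helicase, stood at 44.7 and 44.9 TPM in PGC-1dMeioLC and at 31.3 and 28.6 TPM in E10.5PGC, and Dazl, a germ cell RNA-binding protein, at 454 and 469 TPM against 291 and 286 TPM. Pou5f1, Kit, Tfap2c, Nanos3 and Dppa3 were above 1 TPM in all 4 libraries. Each of them was called lower in PGC-1dMeioLC, with log2 fold changes between -2.83 (Dppa3) and -0.29 (Kit). The calls of Ddx4 and Kit did not hold under every alternative. Itgb3, which encodes the CD61 antigen used to sort E10.5PGC, fell to 3.11 and 2.76 TPM in PGC-1dMeioLC, against 10.4 and 11.2 TPM in E10.5PGC (log2 fold change -1.58 ± 0.20, SE, limma adjusted p = 5.08e-05). Only E10.5PGC was sorted on this antigen just before RNA was taken, and the part of the sort in this difference was not tested. For the other sort antigen, SSEA1, the fucosyltransferase genes Fut4 and Fut9 were listed. Fut4 ran the opposite way to Itgb3, with 4.23 and 3.88 TPM against 0.327 and 0.152 TPM. Fut9 did not pass the TPM rule, with 0.382 and 0.431 TPM against 0.790 and 0.849 TPM. Which of them makes SSEA1 in these cells was not tested. Germ cell markers were therefore present in both groups, as the labels say, but they did not all change in the same direction. Neither group was free of RNA of other cell types.

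Markers of other cell types differed widely between the groups. The 20 listed markers of gonadal somatic cells added up to between 320 and 323 TPM in PGC-1dMeioLC and between 41.8 and 43.6 TPM in E10.5PGC. Foxl2, a granulosa cell factor, stood at 8.32 and 10.1 TPM in PGC-1dMeioLC and was listed at 0 in both E10.5PGC libraries. Amh, a Sertoli cell hormone, had 0 in each PGC-1dMeioLC library but did not pass the TPM rule, so its zeros show no fall. The 16 markers of fibroblasts and stroma added up to between 620 and 638 TPM against between 62.6 and 64.0 TPM, and Mgp, a matrix protein, was listed at 0 in both E10.5PGC libraries. Those sums were higher in both cultured libraries, with no overlap. The 12 markers of macrophages and leukocytes added up to between 709 and 716 TPM in PGC-1dMeioLC and between 35.3 and 37.1 TPM in E10.5PGC. The 12 erythroid markers ran the other way, with between 978 and 1034 TPM in PGC-1dMeioLC and between 3127 and 3209 TPM in E10.5PGC. Alas2 and Gata1 were listed at 0 in both PGC-1dMeioLC libraries. Neither gene passed the TPM rule, so these zeros show no fall. Endothelial markers summed to between 24.6 and 26.1 TPM against between 44.4 and 46.8 TPM, and neural markers to between 17.9 and 19.8 TPM against between 14.7 and 16.4 TPM. Hindgut and epithelial markers summed to between 172 and 191 TPM against between 64.5 and 65.8 TPM, and mesonephros and coelomic markers to between 65.5 and 70.9 TPM against between 22.3 and 24.8 TPM. In LT-1dMeioLC, whose culture also held gonadal somatic cells, the gonadal somatic markers summed to between 314 and 319 TPM, the stroma markers to between 585 and 590 TPM and the macrophage markers to between 306 and 317 TPM. The co-cultured somatic cells carried Actin-GFP, and PGC-1dMeioLC was sorted as GFP-negative, a gate meant to remove them. The part of RNA of other cell types in each result that follows was not tested.

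**Figure D1:**
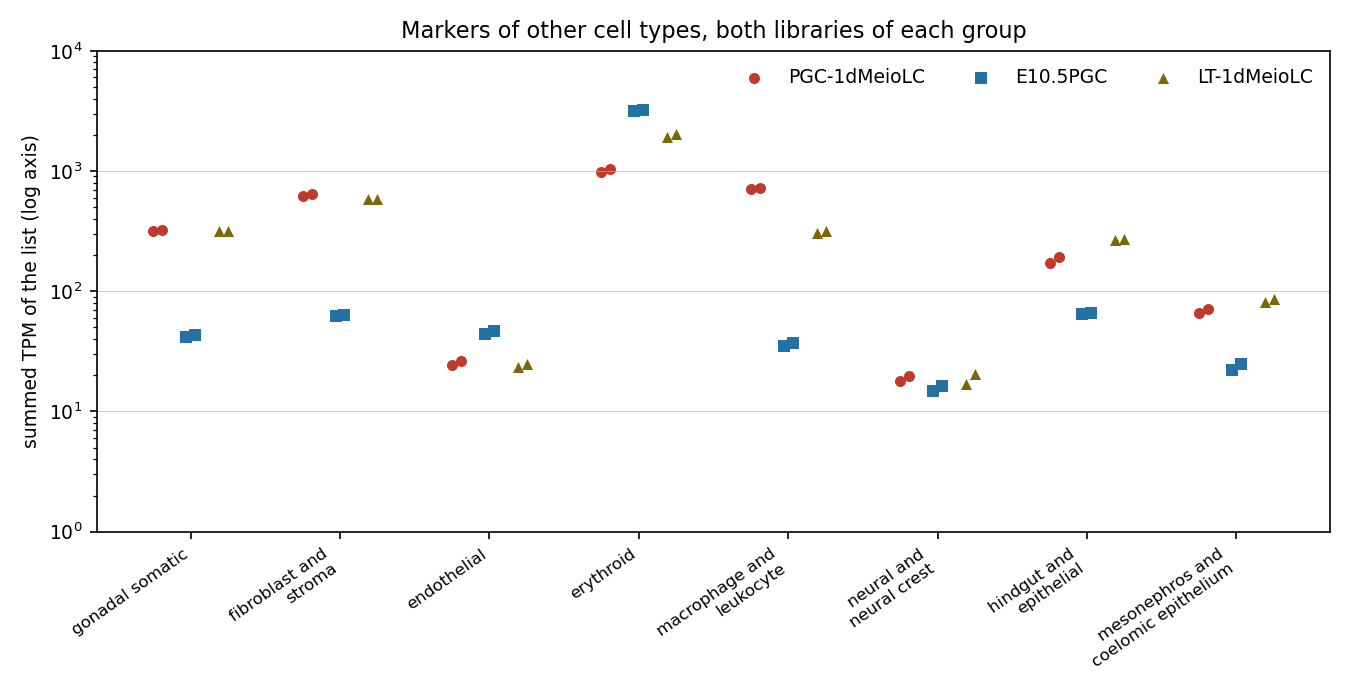
Summed TPM (log axis) of 8 marker lists in both libraries of PGC-1dMeioLC, E10.5PGC and LT-1dMeioLC, each point a library. The gonadal somatic, stroma and macrophage sums were higher in both PGC-1dMeioLC libraries than in both E10.5PGC libraries, and the erythroid sum was lower.

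The libraries also differed in make-up. Between 16189 and 16226 genes reached 1 TPM in PGC-1dMeioLC, and between 13859 and 13942 in E10.5PGC. Nuclear protein-coding genes took 54.2% and 54.3% of TPM in PGC-1dMeioLC and 61.0% and 61.2% in E10.5PGC, the mitochondrial chromosome 14.8% and 14.9% against 9.75% and 9.79%, and noncoding genes of chromosome 17 5.60% and 5.32% against 1.30% and 1.35%. TPM is a share of a fixed total, so the read depth behind each value is unknown. Libraries of a group correlated across the 16342 genes with Pearson's r of 0.977 in PGC-1dMeioLC and 0.986 in E10.5PGC, and genes are not independent replicates. At the edge of the rule, Klhl32 was just inside with 0.880 and 0.850 TPM in PGC-1dMeioLC and 1.19 and 1.00 TPM in E10.5PGC, while Msh4, a meiotic mismatch-repair protein, was just outside with 0.999 and 1.26 TPM against 0.213 and 0.508 TPM.

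Culture went with a change in most genes measured. Of the 16342 genes, 10915 (66.8%) passed a Benjamini-Hochberg adjusted p of 0.05 from limma, fitted to log2(TPM + 1), 6926 (42.4%) of them higher in PGC-1dMeioLC and 3989 (24.4%) lower. Quantile normalization, which equalises the distributions, gave 5041 higher and 5085 lower, so the balance of the directions rests on the scaling. The median log2 fold change over all members was 0.23, and it was 0.40 when the nuclear protein-coding total was set equal in every library and -0.02 after quantile normalization. Medians of the lists below are therefore to be read against 0.23, and their counts against 42.4% higher and 24.4% lower. A list near those values moved no more than the members did as a whole. The groups did not overlap for 13800 genes (84.4%). A change of at least 2-fold was called for 3712 genes (22.7%) that were higher and 1442 (8.82%) that were lower, and one of at least 8-fold for 243 higher and 41 lower. Both PGC-1dMeioLC libraries and neither E10.5PGC library reached 1 TPM for 2294 members, and the reverse held for 485.

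Rises and falls were ranked among called members of at least 10 TPM on average in the higher group, without overlap. Predicted genes, pseudogenes, histones and structural RNAs were left out of this ranking. The largest rise in this ranking was that of Stra8, the retinoic acid-responsive factor of meiotic entry. It is a protein-coding gene (chromosome 6, 34920163 to 34939344, plus strand, GENCODE M21 on mm10). Stra8 reached 747 and 744 TPM in PGC-1dMeioLC, against 0.813 and 1.03 TPM in E10.5PGC. Both cultured libraries were far above both uncultured ones (log2 fold change 8.60 ± 0.17, SE, limma adjusted p = 1.98e-10). The other 9 of the 10 largest rises were those of 1 more retinoic acid gene, 3 genes known from macrophages, 3 matrix genes, a protease inhibitor and a cystatin. Cyp26a1, the main retinoic acid-degrading enzyme, reached 73.8 and 69.4 TPM against 0.301 and 0 TPM. Lyz2 (lysozyme of myeloid cells), Marco (a macrophage scavenger receptor) and Ctss (a protease of antigen-presenting cells) rose by 6.88 ± 0.29, 5.94 ± 0.21 and 5.47 ± 0.28 on the log2 scale. Col1a1, Col6a1 and Ecm1, which are matrix genes, rose by 5.40 ± 0.09, 5.34 ± 0.07 and 6.22 ± 0.08, with Col1a1 at 194 and 179 TPM against 3.00 and 3.95 TPM. Spink8, a protease inhibitor of the Kazal type, stood at 115 and 113 TPM against 0.162 and 0 TPM, and Cst12, a cystatin, at 90.5 and 95.9 TPM against 0.610 and 0.314 TPM.

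Among the 10 largest falls of the same ranking were an embryonic globin, both Lefty genes and early germ cell genes. Small nucleolar RNAs, which the ranking left out, held falls larger than that of Lefty1, such as Snord35b (log2 fold change -6.19). Hbb-bh1, an embryonic globin, stood at 0.749 and 1.12 TPM in PGC-1dMeioLC and at 200 and 211 TPM in E10.5PGC. Lefty2, an inhibitor of Nodal, was listed at 0 in each PGC-1dMeioLC library and stood at 51.7 and 47.4 TPM in E10.5PGC, where no fold can be given. Lefty1, its neighbour and relative, stood at 0.261 and 0.783 TPM against 20.5 and 21.2 TPM. Groups did not overlap for any of these 3 genes, and all 3 passed the test. Tcl1, an activator of the kinase AKT, fell by 3.37 ± 0.20 (SE) on the log2 scale, and Utf1, a chromatin factor of pluripotent and germ cells, fell by 2.90 ± 0.10. Scgn, Prap1, Foxr1, Dohh and Umodl1 complete the 10, with falls between 2.91 and 3.41 on the log2 scale. Foxr1, a forkhead factor, stood at 5.51 and 7.11 TPM in PGC-1dMeioLC and at 64.0 and 61.3 TPM in E10.5PGC.

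**Figure D2:**
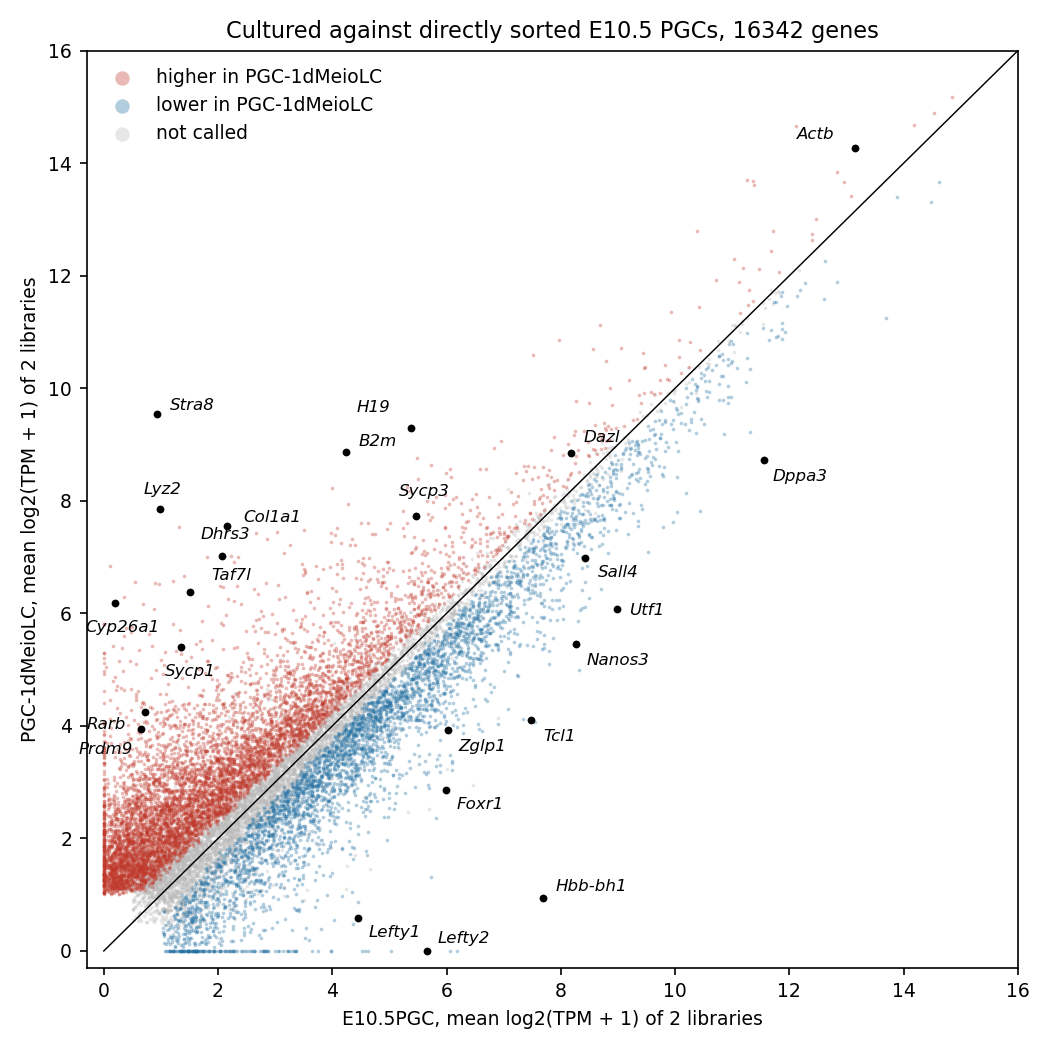
Mean log2(TPM + 1) of both libraries for each of the 16342 genes, PGC-1dMeioLC on the vertical axis and E10.5PGC on the horizontal axis, coloured by the limma call; the line marks equal values. Stra8, Lyz2 and Cyp26a1 lie far above the line, and Lefty2, Hbb-bh1 and Tcl1 far below it.

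**Figure D3:**
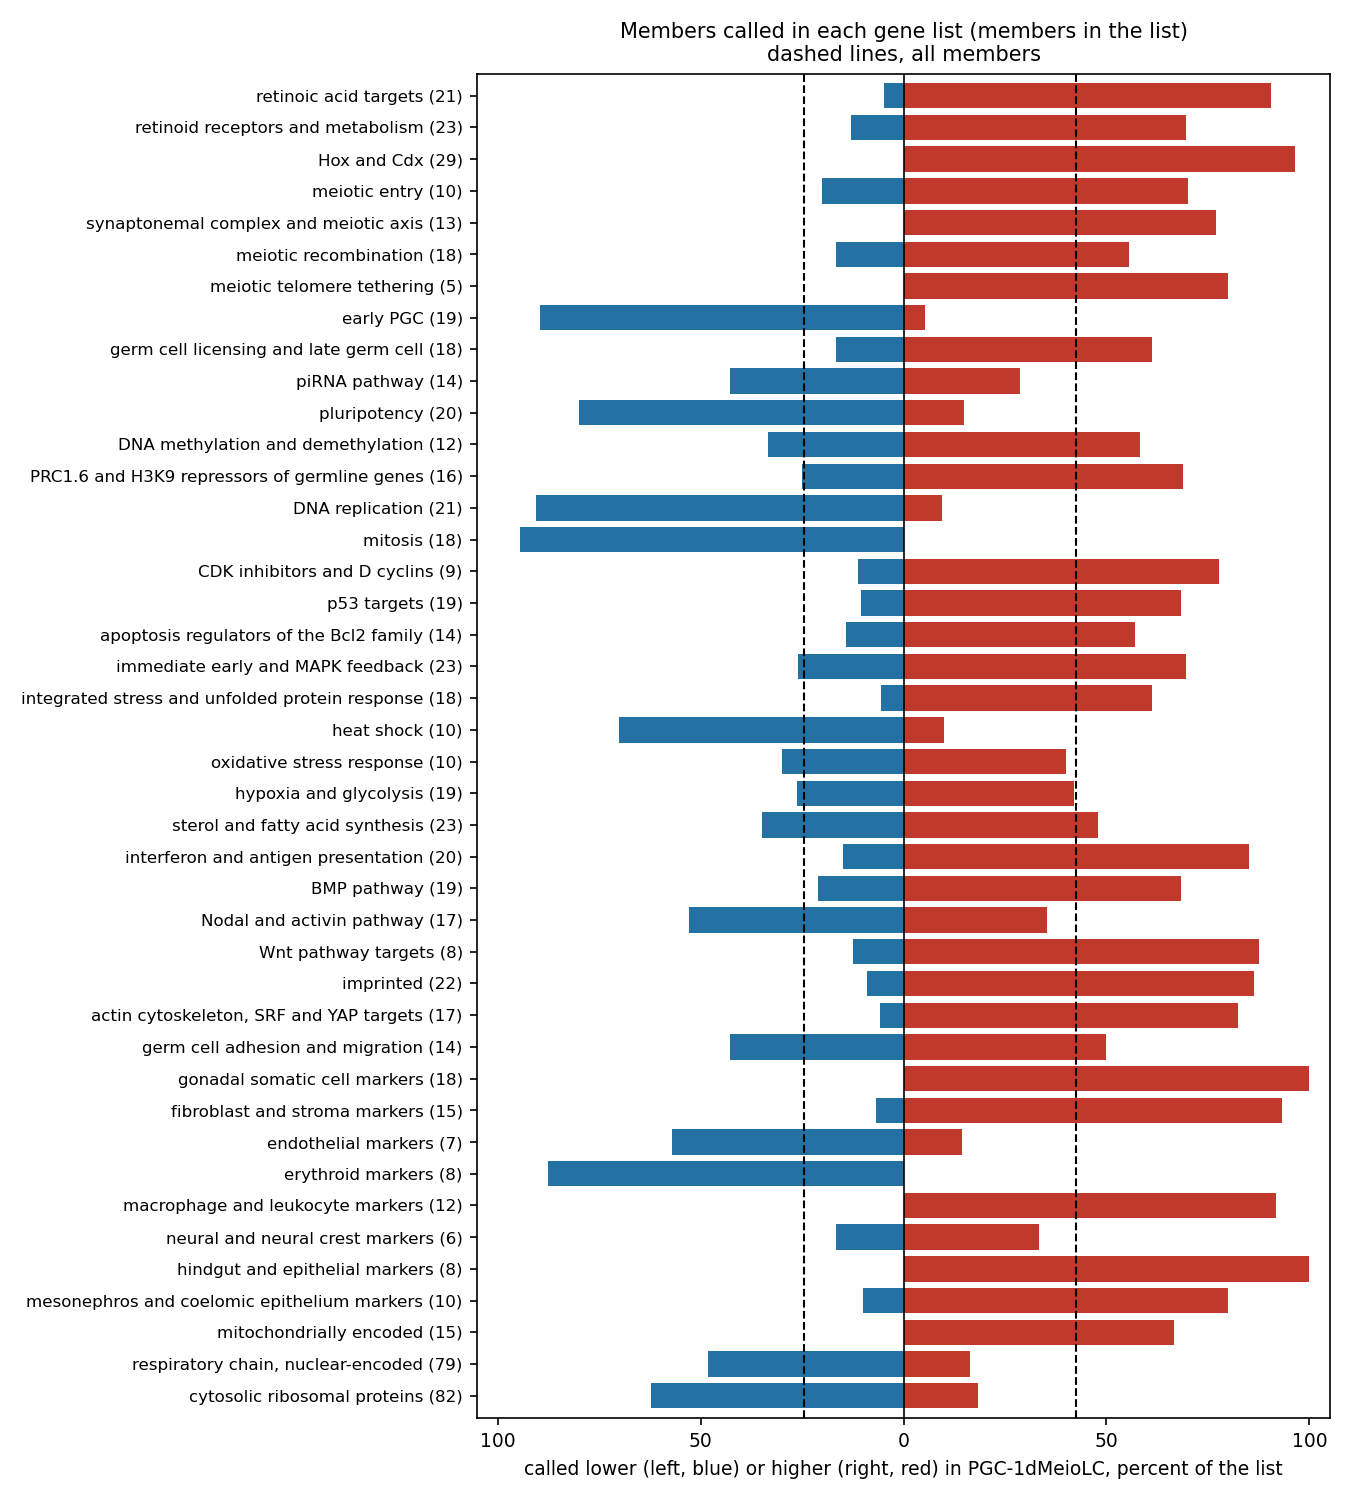
Share of each gene list called higher (red, right) or lower (blue, left) in PGC-1dMeioLC against E10.5PGC, in percent of the list's members, whose number follows the name; dashed lines mark the shares over all members, 42.4% higher and 24.4% lower. Early PGC, pluripotency, DNA replication, mitosis and erythroid lists reach far to the left, and retinoic acid, Hox, imprinted and somatic marker lists far to the right.

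The promoters of 2 known retinoic acid targets hold a direct repeat of the kind that retinoic acid receptors bind. They are given as the 250 bases before the RefSeq gene start on GRCm38.p6, 5′ to 3′ on the gene's strand. Capitals mark the repeat searched, which was GTTCA, then 6 bases of any kind, then GTTCA. Both strands were searched, but other half-sites and spacings were not. The Stra8 window is printed beside them because Stra8 had the largest rise in the ranking above.
Cyp26a1 (chr19:37697558-37697807, plus strand): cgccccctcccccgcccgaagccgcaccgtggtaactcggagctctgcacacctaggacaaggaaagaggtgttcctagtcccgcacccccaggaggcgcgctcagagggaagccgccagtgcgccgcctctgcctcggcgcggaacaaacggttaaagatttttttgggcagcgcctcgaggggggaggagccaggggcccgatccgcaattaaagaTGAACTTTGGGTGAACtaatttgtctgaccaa
Rarb (chr14:16575477-16575726, minus strand): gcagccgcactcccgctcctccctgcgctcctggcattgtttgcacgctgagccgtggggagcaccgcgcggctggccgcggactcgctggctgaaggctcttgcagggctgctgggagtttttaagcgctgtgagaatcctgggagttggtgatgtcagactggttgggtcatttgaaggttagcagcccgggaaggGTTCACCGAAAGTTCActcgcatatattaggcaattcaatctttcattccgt
Stra8 (chr6:34920698-34920947, plus strand): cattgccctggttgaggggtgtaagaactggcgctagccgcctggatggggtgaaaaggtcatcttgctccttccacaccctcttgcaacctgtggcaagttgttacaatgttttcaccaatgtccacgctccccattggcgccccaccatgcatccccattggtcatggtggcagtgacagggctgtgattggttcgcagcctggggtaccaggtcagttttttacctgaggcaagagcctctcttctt
The repeat begins 32 bases before the start of Cyp26a1, where it reads on the opposite strand, and 52 bases before that of Rarb. It was found in 2 of the 15 listed retinoic acid targets with a promoter in the table, which are those shown. Over all 27025 genes in the table the share was 0.0777%. These shares describe the searched letters alone and are no test, since both genes were known targets before the search. The Stra8 window, which starts from RefSeq's gene start and lies inside the longer GENCODE gene, holds neither this repeat nor the other motifs searched, which says only that these letters are not in this window.

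Retinoic acid targets rose as a group. Of 21 members 19 were called higher and 1 lower, with a median log2 fold change of 2.28 against 0.23 over all members. Cyp26a1 rose by 5.99 ± 0.23 (SE) on the log2 scale (limma adjusted p = 9.85e-09). Dhrs3, an enzyme that reduces retinaldehyde and so lowers retinoic acid, stood at 128 and 130 TPM in PGC-1dMeioLC, against 3.28 and 3.10 TPM in E10.5PGC. Rarb, a retinoic acid receptor that is itself a target, stood at 18.2 and 17.8 TPM against 0.582 and 0.704 TPM (log2 fold change 3.53 ± 0.10, limma adjusted p = 8.70e-10). In each of these genes both cultured libraries were above both uncultured ones. Nr2f2, an orphan nuclear receptor, stood at 160 and 157 TPM against 6.05 and 6.35 TPM, and Cyp26b1, the CYP26 enzyme of the fetal testis, at 28.1 and 27.7 TPM against 0.498 and 1.08 TPM. The exceptions were Crabp2, a carrier of retinoic acid, with 39.6 and 45.1 TPM against 49.7 and 45.8 TPM (not called, limma adjusted p = 0.34), and Rarg, a receptor, which fell to 0.755 and 0.592 TPM against 1.41 and 1.69 TPM. Nr2f2 and other genes of this list are also expressed in gonadal somatic cells, whose summed markers were between 320 and 323 TPM against between 41.8 and 43.6 TPM, and the part of such RNA was not tested.

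Of the 23 members that make up retinoid receptors and metabolism, 16 were higher and 3 lower, with a median of 1.50. Synthesis and breakdown rose together. Among enzymes of synthesis, Rdh10, which makes retinaldehyde, stood at 14.6 and 16.4 TPM in PGC-1dMeioLC and 2.02 and 2.28 TPM in E10.5PGC, and Aldh1a2, which makes retinoic acid, at 20.1 and 18.5 TPM against 4.88 and 5.37 TPM. The carrier Crabp1 fell to 37.8 and 40.0 TPM in PGC-1dMeioLC, against 73.3 and 73.5 TPM in E10.5PGC. The receptor Rara was measured at 2.84 and 2.89 TPM against 3.14 and 2.27 TPM, with overlapping groups (limma adjusted p = 0.74). The coactivator Ncoa3 rose to 98.6 and 99.2 TPM, against 39.8 and 39.7 TPM.

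Hox genes, the homeobox factors of axial position that include direct retinoic acid targets, rose broadly but stayed at low levels. Of 29 members of the Hox and Cdx list, 28 were higher and none was lower, with a median log2 fold change of 1.53; under quantile normalization 20 were higher. Hoxa5 stood at 13.5 and 14.5 TPM in PGC-1dMeioLC and 1.63 and 1.54 TPM in E10.5PGC, and Hoxc5 at 5.35 and 7.20 TPM against 0.690 and 0.400 TPM. Cdx1, a caudal-type factor upstream of Hox genes, stood at 9.32 and 10.4 TPM against 1.07 and 1.41 TPM. Hoxa10 was not called, with 2.39 and 2.17 TPM against 1.14 and 2.02 TPM. The list held genes of all 4 Hox clusters, from Hoxb1 to Hoxd10 in paralogue number.

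Genes of meiotic entry rose in part. Of 10 members 7 were higher and 2 lower, with a median of 1.05. Beside Stra8, Meioc, which stabilises meiotic transcripts, stood at 25.1 and 23.0 TPM in PGC-1dMeioLC and 0.289 and 0.268 TPM in E10.5PGC (log2 fold change 4.29 ± 0.12, limma adjusted p = 9.3e-10). The partner of STRA8, listed as Gm4969 (Meiosin), was called higher but stayed low, with 1.81 and 2.54 TPM against 0.170 and 0.175 TPM. Rec8, the meiotic cohesin, stood at 14.9 and 15.9 TPM against 1.82 and 1.54 TPM (log2 fold change 2.61 ± 0.12, limma adjusted p = 3.22e-08). Dazl rose by 0.68 ± 0.09 on the log2 scale (limma adjusted p = 7.58e-05), a change under 2-fold. Rbm46, an RNA-binding factor of meiotic entry, was not called, with 20.2 and 22.2 TPM against 20.4 and 18.1 TPM. Zglp1, a GATA-type factor of the oogenic programme downstream of BMP, fell to 16.68 and 12.01 TPM in PGC-1dMeioLC, against 65.1 and 62.7 TPM in E10.5PGC. Msx1 rose and Msx2 fell, both homeobox factors of the BMP pathway.

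Genes of the synaptonemal complex and of the chromosome axis on which it forms rose for the most part. Of 13 members 10 were higher, none lower, and the median was 1.94. Sycp1, the transverse filament protein, stood at 39.1 and 43.7 TPM in PGC-1dMeioLC and 1.50 and 1.62 TPM in E10.5PGC (log2 fold change 4.05 ± 0.13, limma adjusted p = 2.4e-09). Sycp3, an axial element protein, stood at 203 and 218 TPM against 41.6 and 44.7 TPM (2.26 ± 0.20, limma adjusted p = 3.44e-06). The cohesin subunits Smc1b, with 69.9 and 76.4 TPM against 11.2 and 11.1 TPM, and Stag3, with 31.3 and 29.5 TPM against 14.9 and 14.2 TPM, rose as well. Hormad1, an axis protein that watches over recombination, stood at 82.2 and 87.8 TPM against 21.4 and 21.3 TPM. No member that was called had overlapping groups. The 3 that were not called were already expressed before culture: Syce2, a central element protein, stood at 427 and 452 TPM against 469 and 455 TPM, Syce1, another, at 58.1 and 56.4 TPM against 60.1 and 54.7 TPM, and Hormad2 at 8.82 and 9.56 TPM against 10.1 and 9.04 TPM.

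Promoters from the list of the synaptonemal complex and axis are shown because a 6-base E-box, CACGTG, is frequent in it. Capitals mark the E-box in the 250 bases before the RefSeq gene start on GRCm38.p6, 5′ to 3′ on the gene's strand.
Sycp1 (chr3:102936101-102936350, minus strand): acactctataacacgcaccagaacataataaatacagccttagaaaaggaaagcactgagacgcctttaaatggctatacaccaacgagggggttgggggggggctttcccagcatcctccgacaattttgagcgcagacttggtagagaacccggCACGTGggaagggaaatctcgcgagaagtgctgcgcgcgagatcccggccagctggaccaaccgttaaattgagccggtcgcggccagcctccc
Sycp3 (chr10:88459337-88459586, plus strand): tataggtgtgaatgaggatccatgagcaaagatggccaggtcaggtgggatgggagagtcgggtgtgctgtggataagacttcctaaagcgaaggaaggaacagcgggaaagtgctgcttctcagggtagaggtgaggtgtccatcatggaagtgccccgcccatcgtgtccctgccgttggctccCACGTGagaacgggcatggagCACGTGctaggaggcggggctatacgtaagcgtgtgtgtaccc
Hormad1 (chr3:95559427-95559676, plus strand): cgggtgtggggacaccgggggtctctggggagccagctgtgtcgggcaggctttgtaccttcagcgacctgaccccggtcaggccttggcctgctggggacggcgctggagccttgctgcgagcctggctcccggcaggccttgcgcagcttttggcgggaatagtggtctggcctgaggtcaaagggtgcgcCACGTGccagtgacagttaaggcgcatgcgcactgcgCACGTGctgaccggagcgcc
CACGTG, which reads the same on both strands, was found in 7 of the 14 listed genes of the synaptonemal complex and axis (50%). The share was 6.86% over all 27025 genes with a promoter in the table. CACGTG was found in 10 of the 41 genes with a promoter in the 4 meiotic lists together (24.4%). The E2F-like letters TCCCGC or their reverse complement were found in 19 of those 41 (46.3%), against 18.8% of all genes. The E-box was found before members that were higher, such as Sycp1, Sycp3 and Hormad1. It was also found before Syce2, which was not called, and before Zglp1, which fell. Whether the E-box goes with the direction of change was not tested. A match of letters is a description and not a bound site.

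Recombination genes moved in both directions. Of 18 members 10 were higher and 3 lower, with a median of 1.00; under quantile normalization the counts were 9 and 5. Prdm9, the methyltransferase that sets hotspots, stood at 13.4 and 15.6 TPM in PGC-1dMeioLC and 0.835 and 0.335 TPM in E10.5PGC (log2 fold change 3.31 ± 0.17, limma adjusted p = 7.3e-08). Tex15, needed for loading of recombinases, stood at 24.7 and 23.2 TPM against 2.89 and 2.91 TPM, and Meiob, a single-strand DNA-binding protein, at 9.85 and 9.29 TPM against 0.704 and 0.726 TPM. Dmc1, the meiotic recombinase, stood at 10.2 and 13.8 TPM against 2.95 and 3.81 TPM. Mnd1 and Psmc3ip (Hop2), which act together with DMC1, fell, Mnd1 to 41.7 and 53.7 TPM against 82.8 and 82.6 TPM. Rec114, a partner of the SPO11 machinery, fell to 43.0 and 49.7 TPM against 74.7 and 67.6 TPM.

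Of the 5 members that tether meiotic telomeres to the nuclear envelope, 4 were higher: Terb1, Terb2, Majin and Spdya. Terb1 stood at 3.49 and 3.55 TPM in PGC-1dMeioLC and 0.107 and 0.055 TPM in E10.5PGC, and Spdya, an activator of CDK2, at 15.3 and 12.2 TPM against 2.91 and 3.37 TPM. Majin, a membrane protein, stood at 3.08 and 3.77 TPM against 0.731 and 0 TPM, and its limma adjusted p was 0.0052, or 0.052 without E10.5PGC replicate 2. Terb2 had a limma adjusted p of 0.0047, or 0.063 after quantile normalization. Sun1, a nuclear envelope protein, stood at 10.0 and 10.2 TPM against 9.89 and 9.93 TPM. Terc, the telomerase RNA of interest to the series, was below the TPM rule, listed at 0 in both PGC-1dMeioLC libraries and at 0.945 and 0.974 TPM in E10.5PGC.

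**Figure D4:**
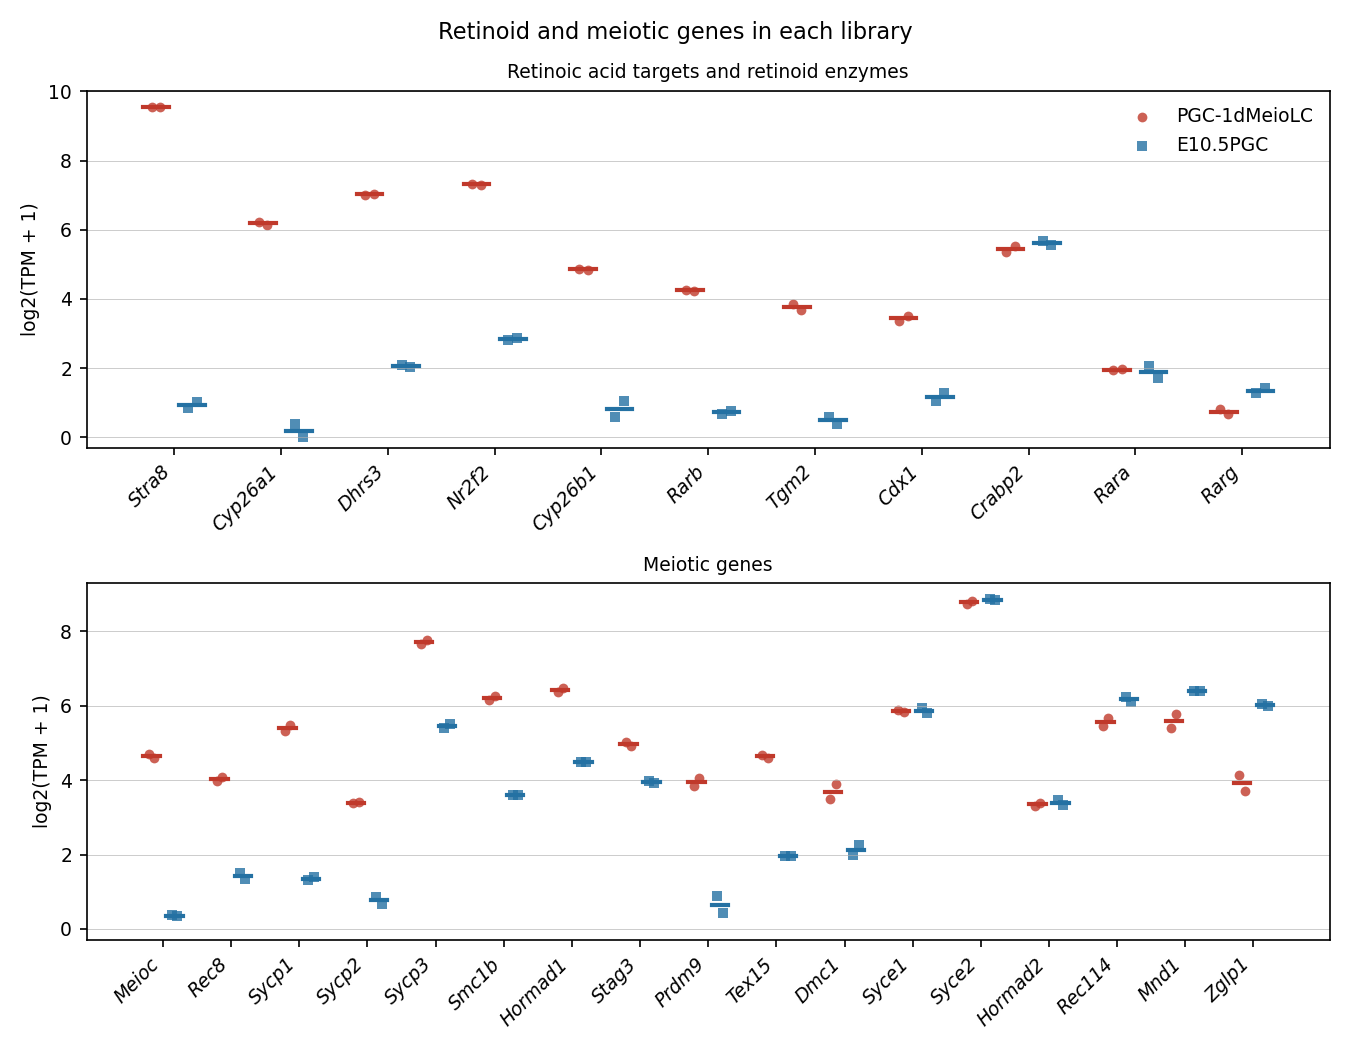
log2(TPM + 1) of retinoid genes (top) and meiotic genes (bottom) in each library, PGC-1dMeioLC as red circles left of E10.5PGC as blue squares, with short lines at the means. Stra8, Cyp26a1 and Sycp1 are apart between the groups, Syce1, Syce2 and Hormad2 lie at the same height, and Rec114, Mnd1 and Zglp1 are lower in PGC-1dMeioLC.

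Early PGC genes fell as a group. Of 19 members 17 were lower and 1 higher, with a median log2 fold change of -1.44. Dppa3 (Stella), a maternal and germ cell factor that guards DNA methylation states, stood at 423 and 425 TPM in PGC-1dMeioLC and 3009 and 3011 TPM in E10.5PGC (log2 fold change -2.83 ± 0.07, limma adjusted p = 5.12e-10). Nanos3, an RNA-binding protein needed for PGC survival, stood at 40.8 and 45.4 TPM against 300 and 312 TPM (-2.80 ± 0.17, limma adjusted p = 2.44e-07). In both genes the cultured libraries were all below the uncultured ones. The factors that specify PGCs fell less: Prdm1 to 4.12 and 3.86 TPM, against 11.1 and 11.6 TPM, Prdm14 to 5.29 and 4.83 TPM, against 20.2 and 20.5 TPM, and Tfap2c to 11.4 and 9.91 TPM, against 21.8 and 24.1 TPM. Cxcr4, the chemokine receptor that guides migrating PGCs, fell to 7.75 and 8.37 TPM, against 51.7 and 48.6 TPM. Kit, the receptor of the survival signal SCF, had a small fall with 15.3 and 16.4 TPM against 19.3 and 19.9 TPM, whose limma adjusted p of 0.026 was 0.36 with protein-coding totals set equal. The member that rose was Fut4, a fucosyltransferase (log2 fold change 2.03 ± 0.16, limma adjusted p = 2e-06). Lin28b, an RNA-binding protein, was not called, with 1.49 and 1.39 TPM against 1.21 and 1.68 TPM.

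Pluripotency genes fell likewise, with 16 of 20 members lower and 3 higher and a median of -1.41, and 5 of the 20 (Prdm14, Utf1, Sall4, Klf2 and Lin28a) were also counted among early PGC genes. Pou5f1, Sox2 and Nanog, the core factors, fell to 2.35 and 2.96 TPM, 18.5 and 15.4 TPM, and 17.9 and 19.7 TPM in PGC-1dMeioLC, against 8.65 and 8.61 TPM, 43.2 and 43.2 TPM, and 50.4 and 54.0 TPM in E10.5PGC. Their log2 fold changes lay between -1.43 and -1.30. Dppa4, a chromatin protein, fell to 57.3 and 56.8 TPM against 321 and 311 TPM, and Zfp42 (Rex1), a zinc finger factor, to 25.8 and 24.1 TPM against 111 and 114 TPM. Dppa5a, an RNA-binding protein, fell to 2381 and 2484 TPM against 13120 and 13350 TPM. Tbx3, Fgf4 and Nr0b1 rose, with Nr0b1, an orphan nuclear receptor, at 10.7 and 14.3 TPM against 5.97 and 5.92 TPM. Klf4 was not called.

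Later germ cell genes moved in both directions. Of 18 members 11 were higher and 3 lower, with a median of 0.74. Taf7l, a germ cell subunit of the TFIID complex, stood at 80.2 and 84.1 TPM in PGC-1dMeioLC and 1.96 and 1.74 TPM in E10.5PGC (log2 fold change 4.87 ± 0.13, limma adjusted p = 7.1e-10). Tex101, a germ cell surface protein, stood at 85.1 and 79.8 TPM against 10.1 and 11.4 TPM, and Sohlh1, a factor of early oocytes and spermatogonia, at 5.52 and 5.87 TPM against 0.103 and 0.160 TPM. Figla, an oocyte factor, was called higher at a low level, with 2.20 and 3.57 TPM against 0.478 and 0.246 TPM. Ddx4 rose by 0.57 ± 0.19, but its limma adjusted p of 0.027 was between 0.059 and 0.12 in the fits that each dropped 1 of the 4 libraries. Dppa5a and the X-linked homeobox genes Rhox6 and Rhox9 were the members that fell, Rhox9 to 85.4 and 83.8 TPM against 327 and 333 TPM.

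The piRNA pathway, which silences transposons with small RNAs, had 4 of 14 members higher and 6 lower, and 4 of each with protein-coding totals set equal. Gtsf1, a zinc finger protein of the pathway, stood at 98.3 and 98.0 TPM in PGC-1dMeioLC and 16.9 and 17.6 TPM in E10.5PGC. Tdrd5, a Tudor protein, fell to 1.72 and 2.15 TPM against 11.7 and 10.2 TPM. Mael, needed for piRNA biogenesis, rose to 72.8 and 72.6 TPM, against 29.4 and 30.1 TPM, and Tdrd12, another Tudor protein, fell to 11.3 and 11.6 TPM, against 30.3 and 26.4 TPM.

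**Figure D5:**
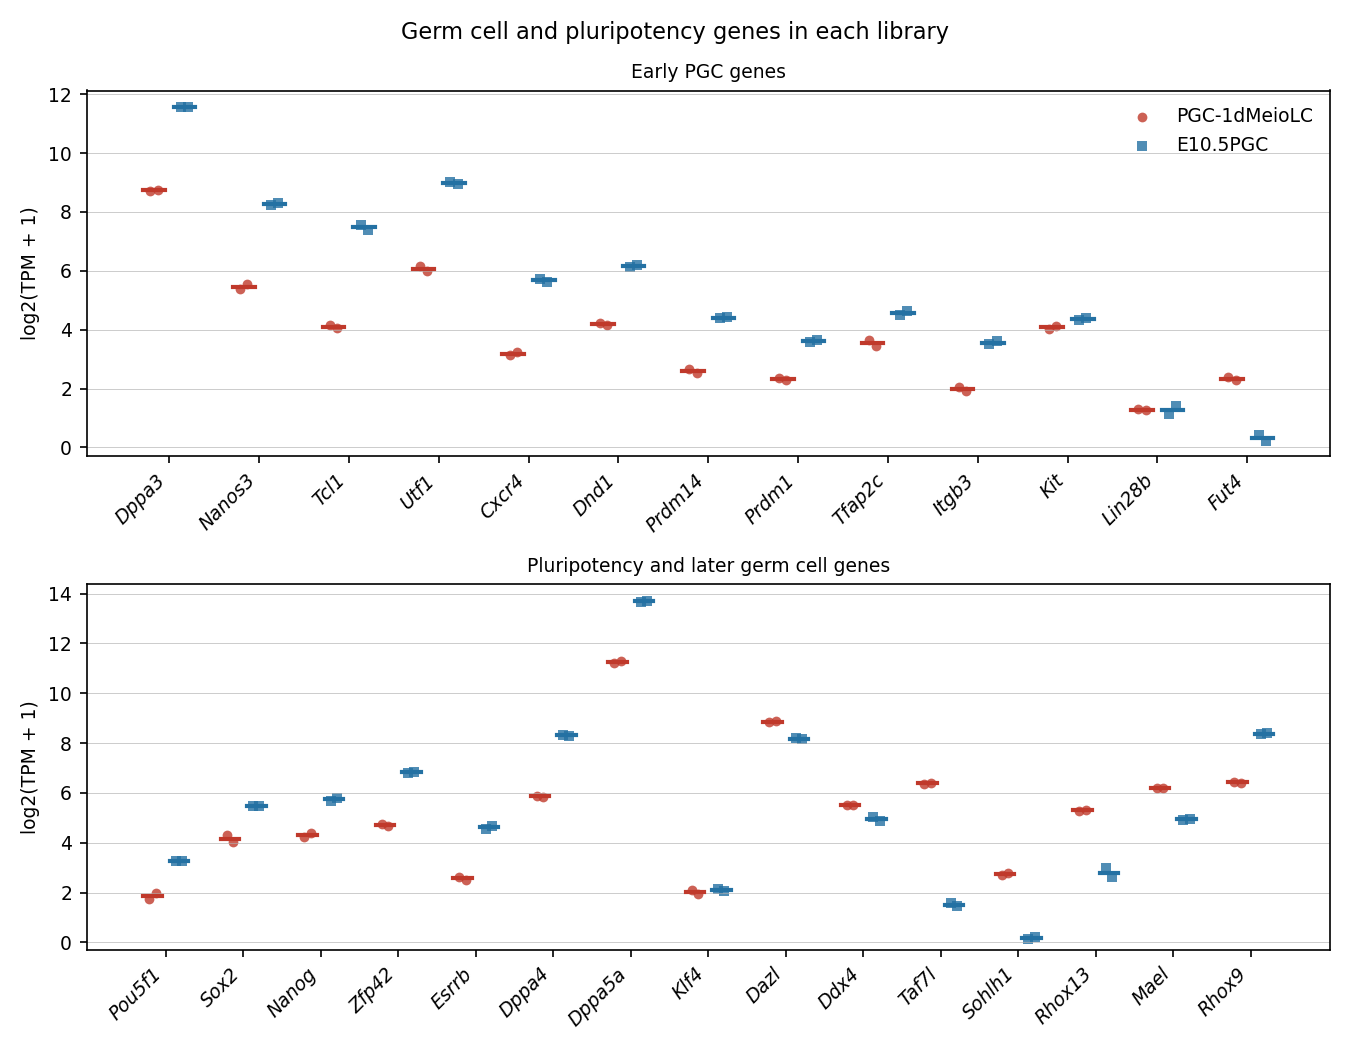
log2(TPM + 1) of early PGC genes (top) and of pluripotency and later germ cell genes (bottom) in each library, PGC-1dMeioLC as red circles left of E10.5PGC as blue squares, with short lines at the means. Dppa3, Nanos3, Tcl1 and Utf1 are lower in PGC-1dMeioLC, and Taf7l, Sohlh1 and Fut4 are higher.

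Regulators of DNA methylation and repressors of germline genes were mixed. Of 12 members of DNA methylation and demethylation 7 were higher and 4 lower, with a median of 0.75. Dnmt3a, a methyltransferase that writes new marks, stood at 10.475 and 10.278 TPM in PGC-1dMeioLC and 3.22 and 3.61 TPM in E10.5PGC, and Uhrf1, which recruits the maintenance enzyme, at 12.458 and 14.052 TPM against 4.50 and 4.59 TPM. Dnmt1, that enzyme, fell to 18.5 and 19.6 TPM against 29.7 and 31.1 TPM. Of the oxidases, Tet1 fell to 3.54 and 3.62 TPM against 8.92 and 8.74 TPM, while Tet2 rose to 5.69 and 6.36 TPM against 1.68 and 1.51 TPM and Tet3 to 2.50 and 2.12 TPM against 0.407 and 0.395 TPM. Apobec1, an RNA-editing deaminase, rose by 2.66 ± 0.16 on the log2 scale. Of 16 members of the Polycomb complex PRC1.6 and the H3K9 methylation machinery, 11 were higher and 4 lower, with a median of 0.65. Yaf2, a Polycomb subunit, stood at 35.9 and 34.0 TPM against 7.54 and 5.72 TPM. L3mbtl2 and Ehmt2 (G9a) fell, L3mbtl2 to 2.90 and 2.12 TPM against 7.30 and 7.21 TPM.

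The cell cycle lists fell. Of 21 members of DNA replication 19 were lower and 2 higher, with a median of -0.95. Mcm7, a subunit of the replicative helicase, stood at 35.5 and 35.6 TPM in PGC-1dMeioLC and 93.5 and 97.3 TPM in E10.5PGC (log2 fold change -1.40 ± 0.06, limma adjusted p = 2.7e-08), and Mcm10, an initiation factor, fell by 1.34 ± 0.09. Ccne1 fell to 16.82 and 16.02 TPM against 40.4 and 38.8 TPM, and the related S-phase cyclin Ccne2 rose to 36.5 and 35.4 TPM against 17.3 and 17.4 TPM. Of 18 mitotic members 17 were lower and none was higher, with a median of -0.44, though 10 were lower and 1 higher with protein-coding totals set equal. Aurka, a spindle kinase, stood at 29.4 and 31.4 TPM against 87.0 and 75.9 TPM, and Cdc20, an activator of the anaphase-promoting complex, at 82.9 and 81.0 TPM against 185 and 188 TPM. Mki67, a proliferation marker, stood at 14.9 and 15.9 TPM against 18.8 and 20.5 TPM, and its limma adjusted p of 0.027 was 0.20 with protein-coding totals set equal.

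Inhibitors of cyclin-dependent kinases rose, and so did D cyclins, in 7 of 9 members together, with a median of 1.37. Cdkn1b (p27) stood at 44.3 and 43.1 TPM in PGC-1dMeioLC and 5.74 and 5.25 TPM in E10.5PGC (log2 fold change 2.78 ± 0.08, limma adjusted p = 8.6e-10), and Cdkn1c (p57) at 121 and 121 TPM against 22.3 and 19.3 TPM. Ccnd2 stood at 52.0 and 47.9 TPM against 6.44 and 6.22 TPM, and Ccnd1 at 29.5 and 28.1 TPM against 4.89 and 4.90 TPM. Cdkn1a (p21), a p53 target, rose to 39.9 and 39.0 TPM, against 15.8 and 17.3 TPM. Ccnd3 was lower and Cdkn2d was not called. All 4 genes with the largest rises are also expressed in gonadal somatic cells and stroma, whose summed markers were higher in PGC-1dMeioLC, and the part of that RNA was not tested.

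Of 19 targets of p53, 13 were higher and 2 lower, with a median of 0.69. Plk2, a kinase, stood at 19.6 and 18.5 TPM in PGC-1dMeioLC and 1.42 and 2.71 TPM in E10.5PGC, Sesn2, a stress sensor, at 11.04 and 8.908 TPM against 2.15 and 2.49 TPM, and Ccng1 at 33.3 and 31.1 TPM against 9.07 and 9.85 TPM. Mdm2, which degrades p53, was not called, with 16.4 and 16.1 TPM against 18.2 and 17.7 TPM. Bax, which opens mitochondria in apoptosis, fell to 56.8 and 55.7 TPM against 188 and 194 TPM (log2 fold change -1.75 ± 0.07, limma adjusted p = 9.84e-09). Within the Bcl2 family 8 of 14 members were higher and 2 lower, with a median of 0.43 that became -0.03 after quantile normalization. Bcl2a1b, a survival gene of leukocytes, stood at 40.5 and 39.0 TPM against 0.326 and 0.756 TPM and belongs to a set of near-identical copies, so its counts are uncertain. Bok stood at 18.0 and 14.3 TPM against 3.04 and 3.81 TPM, and Bak1 at 4.68 and 4.86 TPM against 0.830 and 0.856 TPM, both relatives of Bax.

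Among signalling pathways, Nodal signalling stood out for its falls. Of 17 members of the Nodal and activin pathway 9 were lower and 6 higher, with a median of -0.43. Beside both Lefty genes, which Nodal itself induces, Foxh1, the DNA-binding partner of SMAD2, fell to 5.05 and 8.06 TPM in PGC-1dMeioLC, against 54.0 and 48.1 TPM in E10.5PGC. Nodal fell to 0.767 and 1.97 TPM against 7.57 and 7.57 TPM, Gdf3, a related ligand, to 9.95 and 8.80 TPM against 48.7 and 48.2 TPM, and the coreceptor Tdgf1 to 2.19 and 2.89 TPM against 11.7 and 10.2 TPM. Ligand, coreceptor, nuclear partner and targets were thus each lower in both cultured libraries. The members that rose included Fst (follistatin, an activin antagonist of ovarian somatic cells), at 20.0 and 20.1 TPM against 0.790 and 0.488 TPM, and Tgfb2, at 9.48 and 8.79 TPM against 0.391 and 0.462 TPM.

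BMP pathway members rose in 13 of 19 cases and fell in 4, with a median of 0.90. The ligand Bmp2 stood at 5.10 and 6.90 TPM in PGC-1dMeioLC and 0.375 and 0.232 TPM in E10.5PGC, the receptor Bmpr2 at 5.36 and 6.81 TPM against 0.770 and 0.722 TPM, and the target Id2 at 103 and 113 TPM against 33.7 and 31.4 TPM. Another target, Id3, fell to 165 and 158 TPM against 220 and 217 TPM. Of 8 Wnt targets 7 were higher and 1 lower, with a median of 1.15. Nkd1, a Wnt feedback inhibitor, stood at 11.2 and 14.1 TPM against 0.935 and 0.588 TPM, Sp5, a zinc finger factor, at 4.81 and 4.59 TPM against 0.761 and 0.589 TPM, Dkk1 at 9.75 and 6.99 TPM against 1.70 and 1.53 TPM and Znrf3 at 27.8 and 26.6 TPM against 11.1 and 11.2 TPM, both antagonists of Wnt.

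Immediate early and MAPK feedback genes moved in both directions, and neither kind went one way throughout. Of 23 members 16 were higher and 6 lower, with a median of 0.69. Egr1, an immediate early factor, stood at 50.9 and 48.9 TPM in PGC-1dMeioLC and 5.64 and 6.52 TPM in E10.5PGC (log2 fold change 2.85 ± 0.14, limma adjusted p = 6.9e-08), and Fosl2 rose by 2.15 ± 0.14. Etv4, a target of FGF signalling, fell to 3.404 and 1.773 TPM against 17.1 and 17.1 TPM, and Dusp4, a phosphatase of MAP kinases, to 1.68 and 1.59 TPM against 11.86 and 12.48 TPM. Etv5, the relative of Etv4, fell to 28.6 and 28.7 TPM against 74.3 and 72.2 TPM. The immediate early genes Jund and Dusp1 were lower as well, the feedback genes Dusp5 and Spry2 were higher, and Dusp6 was not called.

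Stress lists did not move alike. Of 18 members of the integrated stress and unfolded protein response 11 were higher and 1 lower, with a median of 0.49. Chac1, a glutathione-degrading enzyme, stood at 9.82 and 7.28 TPM in PGC-1dMeioLC and 1.30 and 1.64 TPM in E10.5PGC, and Herpud1, of protein degradation at the endoplasmic reticulum, at 20.7 and 23.5 TPM against 8.11 and 7.77 TPM. Hspa5 (BiP) was not called, with 94.1 and 95.4 TPM against 103 and 97.7 TPM. Of 10 heat shock members 7 were lower and 1 higher, with a median of -0.55. Hsp90aa1, a cytosolic chaperone, fell to 647 and 668 TPM against 1457 and 1435 TPM. Dnajb1, a cochaperone, fell to 27.5 and 25.3 TPM against 55.9 and 55.5 TPM. The oxidative stress list had 4 of 10 members higher and 3 lower, close to the shares over all members. Srxn1, which repairs peroxiredoxins, stood at 4.97 and 4.96 TPM against 0.709 and 1.17 TPM, and Hmox1, a heme oxygenase also high in macrophages, at 28.5 and 29.3 TPM against 12.1 and 9.65 TPM.

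In metabolism, the hypoxia and glycolysis list had 8 of 19 members higher and 5 lower, near the shares over all members. Vegfa, the angiogenic factor, stood at 24.8 and 20.9 TPM in PGC-1dMeioLC and 2.92 and 3.03 TPM in E10.5PGC, Adm, a vasodilator peptide, at 13.6 and 15.0 TPM against 1.89 and 1.65 TPM, and Ldha, lactate dehydrogenase, at 208 and 209 TPM against 54.3 and 50.7 TPM. Pkm, pyruvate kinase, fell to 128 and 124 TPM against 219 and 214 TPM. Sterol and fatty acid synthesis had 11 of 23 members higher and 8 lower, and 10 of each after quantile normalization. Scd2, a fatty acid desaturase, rose to 114 and 117 TPM against 22.4 and 22.5 TPM, while Mvd and Fdps, enzymes of the mevalonate pathway, fell, Mvd to 14.2 and 16.2 TPM against 55.6 and 56.5 TPM.

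Mitochondrial transcripts rose where they are encoded by the mitochondrion, in 10 of 15 members with none lower. After quantile normalization 7 were higher and none lower, with a median of 0.24 in place of 0.71. mt-Rnr1 and mt-Rnr2, the mitochondrial ribosomal RNAs, stood at 7024 and 7135 TPM and at 12939 and 13303 TPM in PGC-1dMeioLC, against 1310 and 1373 TPM and 2632 and 2671 TPM in E10.5PGC. mt-Nd2, of complex I, stood at 7168 and 7119 TPM against 3285 and 3428 TPM. Nuclear-encoded subunits of the respiratory chain had 13 of 79 members higher and 38 lower, but 25 and 29 with protein-coding totals set equal and 30 and 23 after quantile normalization, so their direction depends on the scaling. Uqcrc1, of complex III, fell to 78.9 and 73.1 TPM against 178 and 172 TPM, and Cox6a2, a muscle-type subunit of complex IV, rose to 6.76 and 14.2 TPM against 0 and 0.303 TPM. Cytosolic ribosomal proteins had 15 of 82 members higher and 51 lower, and 27 and 35 after quantile normalization. Rpl29 fell to 14.9 and 15.7 TPM against 89.3 and 97.0 TPM, and Rps2 to 161 and 177 TPM against 594 and 569 TPM; both have many processed copies in the genome, so their counts are uncertain.

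Imprinted genes, which are expressed from a single parental copy, rose in 19 of 22 members and fell in 2, with a median of 1.89. H19, a noncoding RNA, stood at 647 and 602 TPM in PGC-1dMeioLC and 39.9 and 41.5 TPM in E10.5PGC (log2 fold change 3.91 ± 0.06, limma adjusted p = 4.92e-11), and its neighbour Igf2, a growth factor, at 149 and 146 TPM against 8.59 and 8.57 TPM. Zim1, a zinc finger gene, stood at 15.3 and 13.8 TPM against 0.544 and 0.535 TPM, and Mest at 168 and 171 TPM against 24.2 and 25.6 TPM. For all 4 genes both cultured libraries were above both uncultured ones. Snrpn, a splicing protein, fell to 37.9 and 37.5 TPM against 140 and 135 TPM, and Phlda2, a placental growth regulator, to 241 and 253 TPM against 581 and 590 TPM. H19 and Igf2 are strong in fetal mesenchyme, and the stroma markers summed to between 620 and 638 TPM against between 62.6 and 64.0 TPM; the part of that RNA was not tested, and parental copies were not separated here.

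Interferon-induced and antigen presentation genes rose in 17 of 20 members and fell in 3, with a median of 1.87. B2m, the light chain of MHC class I, stood at 472 and 456 TPM in PGC-1dMeioLC and 16.6 and 19.2 TPM in E10.5PGC (log2 fold change 4.63 ± 0.06, limma adjusted p = 1.91e-11). H2-K1 stood at 56.8 and 57.9 TPM against 2.71 and 1.90 TPM and H2-D1 at 41.1 and 44.2 TPM against 2.48 and 1.68 TPM; these class I heavy chains are close paralogues, so the split of their reads is uncertain. Ifit1, an antiviral protein, stood at 4.67 and 5.09 TPM and was listed at 0 in both E10.5PGC libraries. Bst2 (tetherin), Irf1 and Ddx58 (RIG-I) fell, Bst2 to 2.29 and 2.54 TPM against 25.52 and 20.99 TPM. The early PGC genes Ifitm1 and Ifitm3, of an interferon-inducible family, fell as well, Ifitm3 to 880 and 901 TPM against 1749 and 1742 TPM. Macrophages also express MHC class I, and their summed markers were between 709 and 716 TPM against between 35.3 and 37.1 TPM; the part of that RNA was not tested.

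Genes of the actin cytoskeleton and of SRF and YAP response rose in 14 of 17 members, with a median of 1.08. Acta2, smooth muscle actin, stood at 124 and 129 TPM in PGC-1dMeioLC and 3.67 and 4.63 TPM in E10.5PGC, and Tpm4, Myl9 and Tagln, contractile proteins, rose by 2.79 ± 0.08, 2.60 ± 0.09 and 2.57 ± 0.14 on the log2 scale. Srf itself fell to 5.95 and 5.60 TPM against 9.11 and 9.86 TPM. Adhesion genes changed in both directions, with 7 of 14 members higher and 6 lower. Their median of 0.31 was near the 0.23 over all members. Itga6, a laminin receptor chain, stood at 20.2 and 19.3 TPM against 2.08 and 2.15 TPM, Itga9 at 8.33 and 7.33 TPM against 0.329 and 0.482 TPM and Gja1, a gap junction protein, at 21.5 and 20.4 TPM against 3.10 and 2.67 TPM. Cdh1 (E-cadherin) fell to 6.23 and 6.07 TPM against 12.49 and 13.65 TPM, and Epcam, an epithelial adhesion protein, to 94.2 and 101 TPM against 190 and 200 TPM.

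Gene by gene, the marker lists of other cell types gave 18 of 18 gonadal somatic members higher, 14 of 15 stroma members, 11 of 12 macrophage members, 8 of 8 hindgut and epithelial members and 8 of 10 mesonephros members. Wt1 and Gata4, factors of the gonadal soma, stood at 33.9 and 34.4 TPM and at 18.2 and 16.6 TPM in PGC-1dMeioLC, against 4.26 and 4.52 TPM and 3.51 and 3.22 TPM in E10.5PGC. Kitl, the ligand of KIT made by somatic cells, stood at 29.6 and 28.3 TPM against 2.61 and 2.61 TPM. Nr5a1, a steroidogenic factor of the gonad, rose less, to 7.47 and 8.06 TPM against 3.08 and 3.21 TPM. Of 8 erythroid members 7 were lower, none higher, and of 7 endothelial members 4 were lower and 1 (Kdr, a VEGF receptor) higher. Neural members gave 2 of 6 higher and 1 lower. The adult and embryonic globin genes include near-identical copies, so their separate counts are uncertain.

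LT-1dMeioLC, cultured in the same way but made from stem cells, differed from PGC-1dMeioLC in fewer genes. Of the same 16342 genes 4008 (24.5%) were called between PGC-1dMeioLC and LT-1dMeioLC, 2288 of them (14%) lower in PGC-1dMeioLC and the remaining 1720 higher, with a median log2 fold change of -0.01. The balance of directions turned with the scaling, to 2915 higher and 1279 lower with protein-coding totals set equal and to 2200 higher and 1623 lower after quantile normalization. The count also rested on single libraries, since 2364 and 2432 genes were called without PGC-1dMeioLC replicate 1 or 2, and 2595 and 1926 without LT-1dMeioLC replicate 1 or 2. Both comparisons share the PGC-1dMeioLC libraries, so their values are only set side by side.

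Stra8 stood at 747 and 744 TPM in PGC-1dMeioLC and 845 and 858 TPM in LT-1dMeioLC, a log2 fold change of -0.19 ± 0.17 that was not called (limma adjusted p = 0.49). Sycp3 was at 203 and 218 TPM against 196 and 201 TPM and Rec8 at 14.9 and 15.9 TPM against 13.0 and 14.4 TPM, neither called. Sycp1, with 39.1 and 43.7 TPM against 29.77 and 28.03 TPM, and Gm4969 (Meiosin), with 1.81 and 2.54 TPM against 0.849 and 0.763 TPM, were higher in PGC-1dMeioLC. Of the synaptonemal and axis members 4 of 13 were called, 1 of them lower, and of the early PGC members 8 of 19 were called, 4 of them lower.

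Of the 45 lists, the interferon list had the median farthest from 0 against LT-1dMeioLC: 19 of 20 members were called and all 19 were lower in PGC-1dMeioLC, with a median log2 fold change of -2.50; with protein-coding totals set equal 18 were lower. B2m stood at 472 and 456 TPM in PGC-1dMeioLC and 2907 and 2828 TPM in LT-1dMeioLC, Ifit1 at 4.67 and 5.09 TPM against 52.5 and 51.5 TPM, and Ifitm3 at 880 and 901 TPM against 5368 and 5446 TPM. Of the macrophage markers 9 of 12 were called and none of them was lower in PGC-1dMeioLC, among them Lyz2 with 235 and 227 TPM against 76.2 and 79.5 TPM and Adgre1 (F4/80) with 13.10 and 10.95 TPM against 2.72 and 2.81 TPM. Those counts were also 9 and 0 with protein-coding totals set equal and after quantile normalization. Of the gonadal somatic markers 2 of 18 were called, 1 of them lower. Of erythroid members 6 of 8 were lower in PGC-1dMeioLC, with Hba-a1 at 405 and 424 TPM against 1092 and 1128 TPM.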

How the data were processed

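The authors deposited a table of TPM values (transcripts per 1000000, shares that add up to 1000000 in each library) for 53564 gene symbols. Per the submitters' processing notes, mm10, RSEM, HISAT2, Bowtie2, DESeq2 and R 3.4.2 were used. Their roles, the strand setting and read counts were not given in the sources used here. Depth is therefore unknown and a 0 is reported as listed at 0. Columns were matched to samples by name, which gave 16 libraries in 8 groups of 2. The other 12 columns of per-sample values were not used, since the column names of the epiblast-like cells each occur more than once and no column carries the titles of the day-4 PGC-like cells, which were not analysed here.

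The 21935 genes that reached 1 TPM in 2 or more of the 16 libraries were fitted as log2(TPM + 1) with limma 3.58.1 in R 4.3.3: a mean per group, moderation with a trend, 8 residual and 2.23 prior degrees of freedom, 2-sided test, Benjamini-Hochberg adjustment over the 21935 genes within a comparison, threshold 0.05. Fold changes are differences of mean log2(TPM + 1), PGC-1dMeioLC minus E10.5PGC or LT-1dMeioLC, and understate changes of low genes; errors are limma's standard errors. On simulated data for PGC-1dMeioLC against E10.5PGC, with 21935 genes, the test found 86 of 100 genes whose simulated log2 change was 1. It found 97 of 100 whose change was 2, and 10 of its 193 calls were of unchanged genes. The changed genes were members above a cut in E10.5PGC that was higher than the 1 TPM rule, and all others stayed unchanged. These counts therefore do not describe low genes, or data in which most genes change. No values above 0 were identical between the libraries of a group.

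The members and the 45 gene lists were chosen with earlier results of these data known. Lists are described by counts and medians, with no test. Of 716 list names, 9 were found under an older symbol and 1 (Gcna) was not found. Genes are named by a rule (20 anchors, the largest called changes of each list, at most 4, and the 10 highest and 10 lowest changes at 10 TPM or more without overlap, leaving out predicted genes, pseudogenes, histones and structural RNAs), and others were named after their values were seen. Coordinates are GENCODE M21 on mm10 (53310 symbols with 1 record); 24 symbols had become dates in the table. Promoters are RefSeq's, on GRCm38.p6. Alternatives were another pseudocount (0.1 or 5 TPM), a filter of 5 TPM or none, protein-coding scaling, quantile normalization, no trend, a replicate block, fits of fewer groups and leaving out each library.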

Additional observations from a re-analysis of the deposited data

How the results depend on the processing

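Under 14 alternatives, 180 of the 191 named genes kept their call in PGC-1dMeioLC against E10.5PGC wherever they could be fitted, and none changed direction past the threshold. Calls were lost in 30 cases, those of Ddx4, Kit, Mki67, Elavl4, Majin, Terb2, Spink1, Rpl3l, Hist1h2ad and Hist1h4k, and Terc gained a call in 3. The number of genes called, 10915, lay between 8670 (filter of 5 TPM) and 10898 elsewhere, and between 9500 and 9637 without any 1 library. Fitted without the 1dEB libraries, an alternative chosen after seeing the data, it was 10804.

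For PGC-1dMeioLC against LT-1dMeioLC, protein-coding scaling gave 2915 higher and 1279 lower, and a fit of these groups alone gave 1133 higher. Without any 1 library the calls numbered between 1926 and 2595, the higher ones between 693 and 1130 and the lower ones between 1233 and 1504. The cause was not tested.

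The labels do not say whether replicate numbers mark pairs. Deviations of same-numbered libraries had a Pearson's r of -0.02 in both comparisons, so no large shared deviation was seen. That value cannot decide about pairing, since the spread within groups may be technical. With the number as a replicate block 10862 genes were called against E10.5PGC and 3885 against LT-1dMeioLC. With 2 libraries a group and unknown depth, low genes are the least certain.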

Other observations

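X-linked genes were called higher more often than autosomal ones. Of 510 protein-coding members on the X chromosome, 60.8% were higher in PGC-1dMeioLC than in E10.5PGC and 15.3% lower, with a median log2 fold change of 0.70, against 46.2%, 25.9% and 0.25 for 11982 autosomal protein-coding members. With protein-coding totals set equal these medians were 0.92 and 0.42. After quantile normalization they were 0.37 and -0.00, and 49.4% of these X-linked members were called higher, against 33.4% of the autosomal ones. Xist, the RNA of X inactivation, stood at 7.59 and 7.47 TPM in PGC-1dMeioLC and at 0.0818 and 0.172 TPM in E10.5PGC (limma adjusted p = 3.01e-09). The Y-linked Ddx3y and Eif2s3y were measured in all 4 libraries, Ddx3y at 7.996 and 8.247 TPM in PGC-1dMeioLC and 4.54 and 4.24 TPM in E10.5PGC, and Eif2s3y, which was not called, at 21.6 and 24.1 TPM against 29.2 and 27.9 TPM. The somatic cells of the culture were female; they carried Actin-GFP, and the GFP-negative sort was meant to remove them. The part of their RNA in Xist was not tested. Whether the difference between X-linked and autosomal genes exceeds what the libraries would give was not tested.

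Small nucleolar RNAs had 9 of 93 members higher, 31 lower and 53 not called, and 8 and 26 with protein-coding totals set equal. Snord35b was listed at 0 in each PGC-1dMeioLC library and at 64.3 and 80.5 TPM in E10.5PGC, while Snord13 stood at 30.9 and 30.9 TPM against 2.56 and 0 TPM. Of 52 replication-dependent histones 3 were higher, 10 lower and 39 not called, both shares below the 42.4% higher and 24.4% lower over all members. Among those that were lower, Hist1h2ac stood at 6.48 and 3.51 TPM in PGC-1dMeioLC and 28.8 and 33.2 TPM in E10.5PGC.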
